A study of Mus musculus with 8 samples.

Results

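The cells described here were the Tet-TKO cells and the WT host cells of chimaeric mouse embryos at E7.5, the stage at which gastrulation lays down the mesoderm. Members were all barcodes of the E7.5 Tet-TKO library and the E7.5 WT host library with at least 1500 UMIs (unique molecular identifiers, each counting 1 captured mRNA), at most 30% of UMIs in mitochondrial genes and at most 35% in ribosomal protein genes. These limits kept 5513 of 5916 Tet-TKO barcodes and 7142 of 7443 WT host barcodes, 12655 of the 49851 cells kept across all 8 libraries of the series. In a second pass, cells with a UMI of at least 3 of Elf5, Wnt7b, Rhox6, Rhox9 and Ascl2 were left out as extraembryonic (ExE) ectoderm, the trophoblast tissue to which injected embryonic stem (ES) cells rarely contribute.

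Chimaeras were made by injecting ES cells that lack Tet1, Tet2 and Tet3 into C57BL/6J blastocysts, so that mutant cells developed beside normal cells of the same embryo. The Tet-TKO cells have a C57BL/6J-129Sv background and carried an H2B-tdTomato transgene driven by the CAG promoter, whereas the host cells are wild type, C57BL/6J and tdTomato-negative. Embryos were pooled and sorted by tdTomato into a positive fraction (Tet-TKO) and a negative fraction (WT host), each captured as 1 droplet library. Genotype, strain background, ES cell history, sex make-up, sorted fraction and library therefore all change together and cannot be told apart at E7.5, and with 1 library each no test was possible. All intervals below are 95% exact intervals and cover counting error only.

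TET enzymes oxidise 5-methylcytosine at CpG sites, the first step of active DNA demethylation, and the glycosylase TDG then removes the oxidised bases. At E7.5 the epiblast, the pluripotent tissue that forms the embryo proper, passes through the primitive streak under Nodal, Wnt, BMP and FGF signals and emerges as mesoderm and endoderm. The first mesoderm to leave the streak builds the allantois, amnion and yolk sac, where haematoendothelial progenitors give rise to endothelium and to primitive erythrocytes.

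Both libraries held a like total of UMIs, 105670868 over all Tet-TKO barcodes and 103814649 over all WT host barcodes. The median kept cell had 20741 UMIs in Tet-TKO and 14192.5 in WT host. Tet-TKO depth was also broader, with a lower quartile of 8437 UMIs against 11405. Only 11 barcodes were shared by the 2 libraries, 0.2% of the Tet-TKO cells. A tdTomato UMI was found in 61.2% of Tet-TKO cells (59.9 to 62.5%) and in 0.532% of WT host cells (0.377 to 0.73%). Detection in Tet-TKO followed depth, from 16.8% of the 738 cells under 5000 UMIs to 73.6% of the 3974 cells with at least 10000 UMIs, while its level stayed between 62.2 and 72.3 CPM (UMIs of a gene per 1000000 UMIs of the cells summed). RNA of Tet1, Tet2 and Tet3 was detected in both fractions. Tet1 stood at 13.3 CPM in Tet-TKO and 29.6 in WT host, Tet2 at 2.5 and 3.06, and Tet3 at 9.51 and 16.2. Counts came from the 3′ end of mRNA, and where the deletions lie relative to these ends is not given in the sources used here, so the residual counts do not check the labels.

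Few Tet-TKO cells had the ExE ectoderm signature. At least 3 of its 5 markers were detected in 9 Tet-TKO cells, 0.163% (0.0747 to 0.31%), and in 1432 WT host cells, 20.1%. The second pass left 5504 Tet-TKO and 5710 WT host cells. Some of the signature stayed behind in the host library, where a further 386 cells had 2 of the markers against 21 in Tet-TKO, and the summed level of the 5 markers after the second pass was 52.3 CPM in WT host and 4.82 CPM in Tet-TKO. Sex-linked genes also differed between the libraries. Xist, the RNA that coats the inactive X chromosome of female cells, was at 3.16 CPM in Tet-TKO and 164.5 CPM in WT host. The Y-linked genes Ddx3y (5.94 and 22.9 CPM), Eif2s3y (8.55 and 22.6 CPM) and Kdm5d (0.676 and 6 CPM) were lower in Tet-TKO as well, while Uty stood at 5.52 and 6.61 CPM. The sex of the ES cells and of the host embryos is not given in the sources used here.

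Gene detection was compared first, since it depends on depth before anything else. With all UMIs counted, the median Tet-TKO cell had 4361 genes (4325 to 4395) and the median WT host cell 3620 (3604 to 3635) in the second pass. Each cell was then thinned at random to 5000 UMIs, which left out 738 Tet-TKO and 469 WT host cells below that depth. At equal depth the order turned round, with 1987 genes per Tet-TKO cell (1984 to 1989) and 2043 per WT host cell (2041 to 2046). The gap between the medians was narrower than the quartile range within either library, which ran from 1941 to 2033 genes in Tet-TKO and from 1997 to 2095 in WT host. Fewer genes were also found in at least 1% of the thinned Tet-TKO cells (10919) than of the thinned WT host cells (11381), while 1134 and 1129 genes were found in at least 50% of them.

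**Figure D1:**
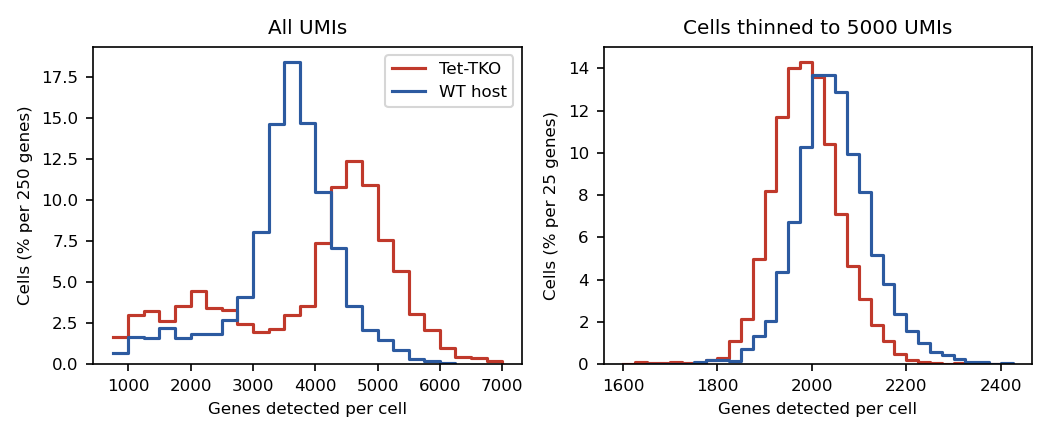
Genes detected per cell (x axis) against the percentage of cells per bin (y axis) in the E7.5 Tet-TKO (red) and WT host (blue) libraries without ExE ectoderm cells, with all UMIs on the left and after thinning to 5000 UMIs on the right. With all UMIs the Tet-TKO cells form a broad low part and a peak to the right of the host (medians 4361 and 3620), and at equal depth the Tet-TKO distribution lies slightly to the left (medians 1987 and 2043).

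Cells were then called positive for a class when at least 3 of its 5 or 6 markers had a UMI after thinning. A class is a set of marker genes rather than a clustered cell type, and 14.4% of cells in the Tet-TKO library were positive for exactly 2 classes, against 10.4% in the host. No class was reached by 25.8% and 35.9%, respectively. Epiblast and early mesoderm classes took a larger share of the Tet-TKO cells. Blood and endoderm classes took a smaller share.

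Epiblast-positive cells (Pou5f1, Utf1, Slc7a3, Fgf5, Pim2, Dnmt3b) made up 37.6% of Tet-TKO cells (36.2 to 39%) and 25% of WT host cells (23.8 to 26.2%), a log2 ratio of 0.59 (0.48 to 0.69). The widest gap among the early mesoderm classes was in the primitive streak class (T, Mixl1, Eomes, Evx1, Wnt3, Sp5). Streak-positive cells were 18.2% of Tet-TKO (17.1 to 19.3%) and 5.4% of WT host (4.8 to 6.05%), a log2 ratio of 1.75 (1.56 to 1.95). Nascent mesoderm-positive cells (Mesp1, Mesp2, Snai1, Lhx1, Tbx6, Dll3) were 8.73% (7.94 to 9.57%) and 4.71% (4.15 to 5.32%). Extraembryonic mesoderm-positive cells (Hand1, Foxf1, Tbx4, Tbx20, Bmp4, Msx2) were 20.4% (19.2 to 21.5%) and 10.9% (10.1 to 11.8%). As a measure of background in WT host, 11 of 504 extraembryonic endoderm-positive cells, 2.18%, were also streak-positive. None of them was nascent mesoderm-positive (exact upper limit 0.729%). In Tet-TKO none of 16 such cells had either call (exact upper limit 20.6% for each), too few cells to measure this background there. Epiblast and extraembryonic mesoderm calls met in the same cell more often in Tet-TKO. Among epiblast-positive cells with no streak or nascent mesoderm call, 5.35% of cells in Tet-TKO and 0.163% in WT host were extraembryonic mesoderm-positive, and epiblast calls were found in 9.13% and 0.372% of extraembryonic mesoderm-positive cells with no streak or nascent mesoderm call. Other calls in such epiblast-positive cells went the other way, with extraembryonic endoderm in 0.274% and 1.8% and caudal epiblast in 0.685% and 3.84%. Their part in the shares above was not tested.

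The haematoendothelial class (Kdr, Etv2, Tal1, Lmo2, Fli1, Sox7) went the other way. It held 112 Tet-TKO cells, 2.35% (1.94 to 2.82%), and 230 WT host cells, 4.39% (3.85 to 4.98%), a log2 ratio of -0.90 (-1.24 to -0.57). Further along the lineage, 1 Tet-TKO cell, 0.021% (0.000531 to 0.117%), and 65 WT host cells, 1.24% (0.958 to 1.58%), were positive for the erythroid and blood progenitor class (Gata1, Klf1, Nfe2, Epor, Hemgn, Alas2). In epiblast-positive cells with no streak or nascent mesoderm call, which should lack these genes, the erythroid class was reached by no cell in either library and the haematoendothelial class by 0.343% in Tet-TKO and 0.327% in WT host.

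Endodermal classes took a far smaller share of Tet-TKO than of host cells. The extraembryonic endoderm class (Amn, Cubn, Afp, Apom, Apoa4, Cited1) had 16 Tet-TKO cells, 0.336% (0.192 to 0.545%), and 504 WT host cells, 9.62% (8.83 to 10.4%), a log2 ratio of -4.84. Without thinning the shares were 0.999% and 11.4% (-3.52), and at 10000 UMIs the log2 ratio was -6.09. This visceral endoderm descends from the hypoblast, to which injected ES cells also contribute little. The anterior streak and definitive endoderm class (Foxa2, Sox17, Trh, Cer1, Gsc, Cldn6), whose genes the visceral endoderm partly shares, held 2.08% (1.69 to 2.52%) and 8.83% (8.08 to 9.64%), a log2 ratio of -2.09. Without thinning they were 6.16% and 12.4% (-1.01). Of the 463 host cells of this class, 175 (37.8%) were also extraembryonic endoderm-positive, against 1 of 99 in Tet-TKO. Here and wherever results are given without extraembryonic endoderm cells, those left out were called on all UMIs. They were 55 Tet-TKO and 653 WT host cells, more than the thinned class holds. Without them the shares of the anterior streak and definitive endoderm class were 2.04% (1.66 to 2.49%) and 5.33% (4.7 to 6.01%), a log2 ratio of -1.38. Caudal epiblast-positive cells were 2.9% (2.44 to 3.41%) and 5% (4.42 to 5.62%), and notochord-positive cells were 6 and 49 in number. The caudal epiblast difference was seen only after thinning: with all UMIs the shares were 11.8% and 11.7%. A primordial germ cell class, led by Dppa3 and Nanos3, held 14 Tet-TKO and 3 WT host cells. No cell of either library was positive for maternal decidua or immune markers after thinning, and 3 cells would make a share of 0.0629% in Tet-TKO and 0.0572% in WT host.

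**Figure D2:**
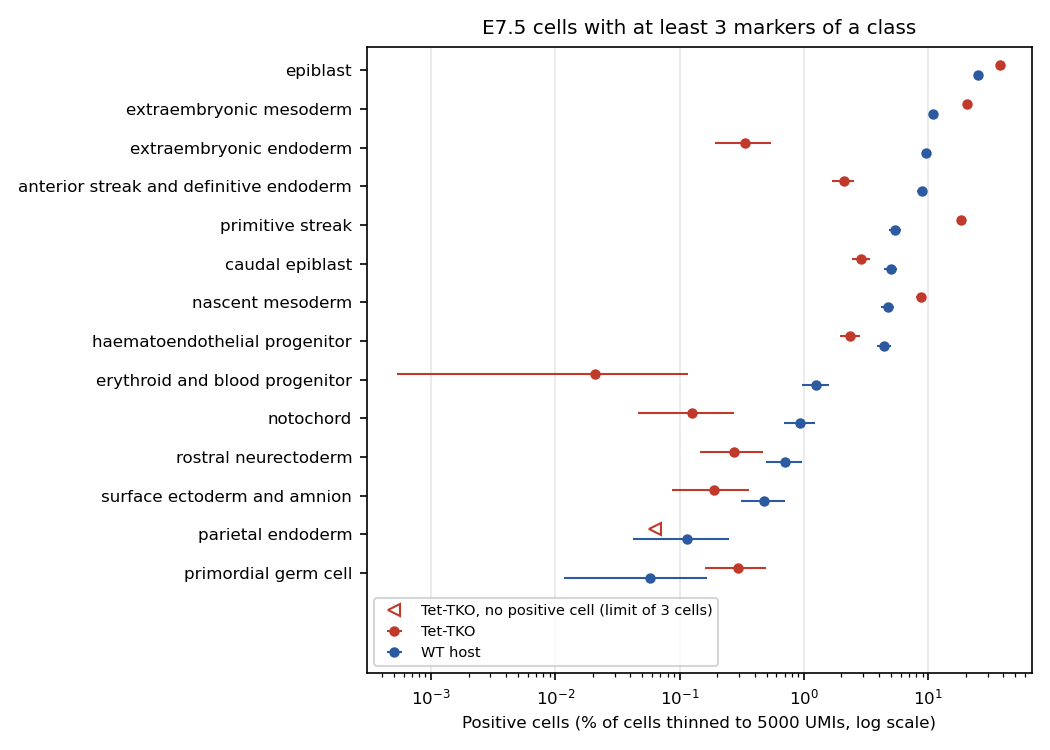
Share of cells positive for each class (x axis, percent on a log scale, cells thinned to 5000 UMIs) in Tet-TKO (red) and WT host (blue) at E7.5, with 95% exact binomial intervals that cover counting error only; the open triangle is the limit that 3 cells would set where no cell was positive. Epiblast, streak and mesoderm classes lie to the right in Tet-TKO (streak 18.2% against 5.4%), and haematoendothelial, erythroid and endoderm classes lie to the left (extraembryonic endoderm 0.336% against 9.62%).

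Epiblast and mesoderm markers were found in the same cell more often in Tet-TKO. Among extraembryonic mesoderm-positive cells, 98 of 971 Tet-TKO cells, 10.1% (8.27 to 12.2%), were also epiblast-positive, against 2 of 571 WT host cells, 0.35% (0.0424 to 1.26%). Among nascent mesoderm-positive cells the epiblast call was shared by 20.9% of Tet-TKO (17.1 to 25.1%) and 7.29% of WT host cells (4.38 to 11.3%). Among streak-positive cells it was shared by 33.3% (30.2 to 36.6%) and 27.9% (22.8 to 33.5%), intervals that overlap. The overlap was largest in shallow Tet-TKO cells. Without cells under 10000 UMIs, 4.46% of extraembryonic mesoderm-positive Tet-TKO cells (3.16 to 6.09%) and 0.383% of WT host cells (0.0464 to 1.38%) were epiblast-positive. Without the cells of highest doublet score, a share fixed by the number of cells in the library, these were 8% (6.35 to 9.93%) and none of 552 (exact upper limit 0.666%). Among nascent mesoderm-positive cells the shares without the shallow cells were 17.2% (13.4 to 21.6%) and 6.79% (3.85 to 10.9%). The part played by mixed droplets and free RNA was not tested. For comparison, 4.56% of the extraembryonic endoderm-positive WT host cells (2.91 to 6.77%) were epiblast-positive, a share above that in the extraembryonic mesoderm of the same library. In Tet-TKO 4 of 16 such cells were, 25% (7.27 to 52.4%), so this background was also higher there, on few cells.

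Expression was compared on UMIs summed over all cells of a library and scaled to CPM, in which fewer cells of a type and less RNA per cell cannot be told apart. Of 7310 genes with a mean of at least 10 CPM over both libraries, 103 were at least 2-fold higher in Tet-TKO (1.41%) and 303 at least 2-fold lower (4.15%). Without ExE ectoderm cells, 66 of 7277 genes were higher (0.907%) and 213 lower (2.93%), and these second-pass values are used from here on. The median log2 ratio over all genes tested was -0.07. Leaving out the extraembryonic endoderm-positive cells too, as called on all UMIs, brought the genes lower in Tet-TKO from 213 to 125, while 64 were higher. With median-of-ratios scaling, 91 genes were higher and 169 lower.

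Ratios were ranked without mitochondrial, ribosomal, haemoglobin, Gm and Rik genes, Xist and Y-linked genes. Ranked genes had at least 50 CPM in the library with the higher level, not as a mean. The 10 lowest ratios were those of Afp, Apob, Apoa1, Spink1, Apom, Ttr, Rbp4, Amn, Ctsh and Rhox5. Secreted carriers and lipoproteins such as these are typical products of the visceral endoderm. Ttr, which encodes a thyroid hormone carrier, was at 11.8 CPM in Tet-TKO (11.1 to 12.5) and 734.1 CPM in WT host (728 to 740.1), a 62.3-fold difference. Its log2 ratio of -5.96 was -3.96 without extraembryonic endoderm cells, -4.68 as a mean over cells and -6.82 in cells of at least 10000 UMIs. Without extraembryonic endoderm cells Rbp4, the retinol carrier, was no longer past 2-fold (-5.22 and then -0.79), and the log2 ratio of Afp went from -7.52 to -3.32. Afp is 1 of the markers that called the cells left out, so its change was fixed in advance and says nothing further. Afp, the fetal serum protein, was at 0.39 and 71.7 CPM and Apoa1, a lipoprotein component, at 6.89 and 507.9 CPM. The log2 ratio of Apoa1, -6.20, was -3.13 without extraembryonic endoderm cells and -7.53 in cells whose tdTomato UMIs matched the fraction. Rhox5, an X-linked homeobox gene of extraembryonic tissues whose promoters are known to be regulated by methylation, was at 13.9 and 300.8 CPM. Of 19 genes on the endoderm list, 15 were tested, 14 were at least 2-fold lower and 1, Gsc, was higher. Their median log2 ratio was -5.17, and 2.93% of all genes tested were lower. Without extraembryonic endoderm cells Apoe (log2 ratio -2.27 and then -0.85), Sox17 (-1.32 and -0.59) and Cldn6 (-1.34 and -0.77) were not past 2-fold either. Ttr and Xist were higher in low-depth cells of both libraries. Ttr was at 174.8 CPM in Tet-TKO cells under 5000 UMIs and 5.66 CPM in those with at least 10000, and Xist was at 12.2 and 2.82 CPM. In WT host Ttr was at 2001 and 642.1 CPM and Xist at 236.1 and 161.7 CPM. The part played by free RNA or by host cells in these counts was not tested.

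The 10 highest ratios of the same ranking were BC002163, Spata7, Tdgf1, Mixl1, Dppa5a, Zdbf2, Fgf8, Mesp1, Fgf5 and Snhg14. Of the genes left out of it, Rps13-ps1 and Rps3a3 had higher log2 ratios, 5.13 and 5.01. Spata7, a gene of the photoreceptor cilium, was at 161.1 CPM in Tet-TKO (158.6 to 163.5) and 20.7 CPM in WT host (19.7 to 21.8), 7.76-fold higher, and had a UMI in 43.7% of thinned Tet-TKO cells against 8.74% of host cells. Zdbf2, a paternally expressed imprinted gene, was at 94.6 and 30.3 CPM. Tdgf1 (Cripto), the co-receptor through which Nodal signals, was at 187.3 and 35.5 CPM, 5.28-fold higher, with a UMI in 36.3% and 7.54% of thinned cells. Across depths its level was between 162.4 and 201.8 CPM in the 3 depth ranges of Tet-TKO and between 19.2 and 36.9 CPM in those of WT host, so that the ranges did not overlap. The host level was lowest in its shallowest cells.

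**Figure D3:**
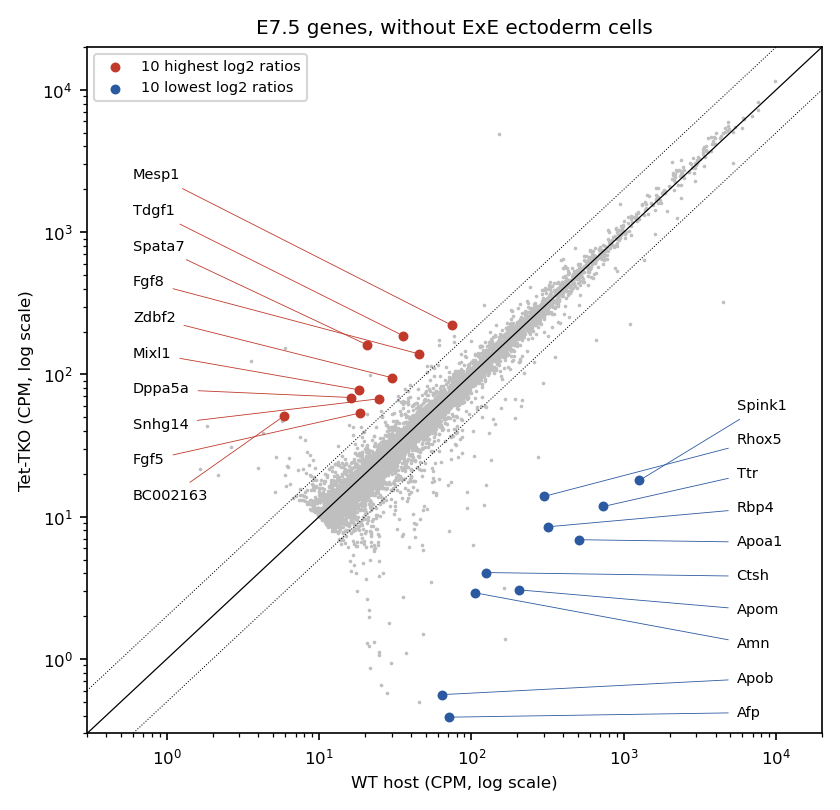
CPM in WT host (x axis, log scale) against Tet-TKO (y axis, log scale) for the 7277 genes tested at E7.5 without ExE ectoderm cells; the solid line marks equality and the dotted lines 2-fold differences. The 10 highest ratios of the ranking (red) lie between 51.2 and 221 CPM in Tet-TKO. The 10 lowest (blue) lie below the cloud, at 0.39 to 18 CPM in Tet-TKO. The ranking left out mitochondrial, ribosomal, haemoglobin, Gm and Rik genes, Xist and Y-linked genes.

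The sequences upstream of 3 of these genes are shown because CpG sites are the substrate of the missing enzymes. Each is the 250 bases before the RefSeq start nearest to the annotated gene, on GRCm38.p6, read along the strand of the gene, with CpG sites in capitals. Spata7 (chr12:98627892-98628141, plus strand) has 12 CpG sites, Tdgf1 (chr9:110946159-110946408, minus strand) 7 and Zdbf2 (chr1:63273019-63273268, plus strand) 26, against a median of 6 over the 27025 windows of that table. As many sites or fewer were held by 68.1%, 56.5% and 91.8% of all windows.
Spata7: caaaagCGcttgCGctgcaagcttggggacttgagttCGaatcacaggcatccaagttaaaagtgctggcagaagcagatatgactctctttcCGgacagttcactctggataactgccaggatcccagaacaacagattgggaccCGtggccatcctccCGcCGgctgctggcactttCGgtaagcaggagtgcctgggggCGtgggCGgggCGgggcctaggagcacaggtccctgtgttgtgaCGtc
Tdgf1: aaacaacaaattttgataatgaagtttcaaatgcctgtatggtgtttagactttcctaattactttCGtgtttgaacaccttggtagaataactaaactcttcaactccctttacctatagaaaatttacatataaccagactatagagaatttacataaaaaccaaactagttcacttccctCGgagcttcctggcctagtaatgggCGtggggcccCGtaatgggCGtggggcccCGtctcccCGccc
Zdbf2: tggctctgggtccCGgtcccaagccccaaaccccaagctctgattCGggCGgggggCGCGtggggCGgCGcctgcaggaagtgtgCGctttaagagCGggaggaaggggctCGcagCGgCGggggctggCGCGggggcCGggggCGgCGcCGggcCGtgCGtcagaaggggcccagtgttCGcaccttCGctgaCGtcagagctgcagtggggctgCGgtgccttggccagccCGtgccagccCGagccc
Methylation was not measured in these libraries, and only 65.2% of the genes that were higher could be matched to a window, so no comparison of CpG content between gene groups was made.

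Several pluripotency genes were higher in Tet-TKO and others were level. Of 18 listed, 13 were tested, 4 were at least 2-fold higher and none lower, with a median log2 ratio of 0.47. The 4 were Tdgf1, Fgf5, Dppa5a and Dppa4. Of all 7277 genes tested, 0.907% were higher and 2.93% lower, shares that also stand beside the list counts over all cells below. Dppa5a, an RNA-binding protein of pluripotent cells, was at 68.8 CPM in Tet-TKO and 16.3 CPM in WT host. Its neighbour in name, Dppa4, a chromatin protein of the early embryo, was at 21.7 and 7.87 CPM, a log2 ratio of 1.46 that became 3.05 with cells of at least 2 ExE ectoderm markers left out. Of the core factors, Pou5f1 was at 410.4 and 242 CPM (log2 ratio 0.76), Nanog at 17.7 and 10.8 CPM (0.72) and Sox2 at 28.8 and 54 CPM (-0.91). Pou5f1 and Nanog were thus higher and Sox2 lower, each by less than 2-fold, except that Sox2 was at -1.04 without extraembryonic endoderm cells. Lin28a (155.5 and 160.1 CPM) and Utf1 (111.5 and 94.3 CPM) were close in both libraries.

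Of the Nodal pathway genes, Tdgf1 was higher and the inhibitors Lefty2 and Cer1 were lower. The ligand Nodal was at 12.6 CPM in Tet-TKO and 6.78 CPM in WT host, and was below the level required for the count. The co-receptor Tdgf1 was higher, as above, while the related Cfc1 was at 37.7 and 31.7 CPM and the receptor Acvr2b at 87.3 and 96.5 CPM. Both of the secreted inhibitors that were tested were lower. Lefty2, an inhibitor that Nodal signalling itself induces in nascent mesoderm, was at 10.1 CPM (9.47 to 10.7) and 25 CPM (23.9 to 26.2), a log2 ratio of -1.31 (-1.42 to -1.20). Cer1, made by anterior visceral and definitive endoderm, was at 7.27 and 34.9 CPM, a log2 ratio of -2.26. Of 14 listed genes 8 were tested, 1 was higher, 2 were lower and the median was 0.00.

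In the FGF pathway the ligands Fgf8 and Fgf5 and the inhibitor Spry2 were higher in Tet-TKO. Fgf8, needed for cells to leave the streak, was at 139.3 CPM (137 to 141.5) against 45.3 CPM (43.8 to 46.8). Fgf5, an epiblast ligand, was at 53.5 and 18.5 CPM, and the feedback inhibitor Spry2 at 53.1 and 20.5 CPM. Fgf3 was level at 100 and 105.6 CPM. Of 15 listed genes 11 were tested, these 3 were higher and none was lower, with a median of 0.42. Receptors showed no 2-fold difference, with Fgfr1 at 66.1 and 69.4 CPM and Fgfr2 at 9.78 and 16.5 CPM. In the Wnt pathway, Wnt3, the ligand that starts the streak, was at 21.4 and 7.27 CPM, and Sfrp1, a secreted antagonist, at 32.1 and 79.1 CPM. The Wnt targets Sp5 (58.2 and 48.8 CPM) and Axin2 (26 and 22.5 CPM) differed little, and 1 of the 9 genes tested was higher and 1 lower. In the BMP pathway, Bmp4 was at 79.3 and 52.5 CPM. Of the targets, Msx2 was higher (70 and 32.8 CPM), Id2 was lower (59.9 and 210.1 CPM) and Id1 was at 278.6 and 226.3 CPM. Msx2 and Id2 were the only genes past 2-fold among the 10 tested. In the streak set described below, 3 of 9 Wnt genes tested were lower and none higher, against 2.06% of all genes lower. Their median there was -0.42, against 0.26 over all cells, and -0.59 in the epiblast set. In the haematoendothelial set 2 of 6 Wnt genes were higher and none lower, with a median of 0.84. No BMP gene was lower in the streak, haematoendothelial or extraembryonic mesoderm set, and 1 of 5 was in the epiblast set. Of 10 FGF genes in the epiblast set 3 were higher and 1 lower (median 0.61). Of 12 in the streak set 1 was higher and 1 lower (median 0.05). Of all genes tested, 0.87% were higher and 1.37% lower in the epiblast set, and 0.789% and 2.06% in the streak set.

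Part of the transcription factors of the streak and early mesoderm were higher in the sum over all cells. Of 21 listed, 16 were tested and 5 were at least 2-fold higher, namely Mixl1, Mesp1, Eomes, Evx1 and Gsc. None was lower, and 15 of the 16 had a ratio above 0, with a median of 0.77, against 2674 of all 7277 genes. Mixl1, Mesp1, Eomes and Evx1 are themselves markers of the streak and nascent mesoderm classes, so that the list could not be followed as a whole within those cells. Of its 11 other genes tested there, 1 was higher, Gsc, and 2 were lower. Mixl1, a homeobox gene of the streak, was at 77.9 CPM (76.3 to 79.7) and 18.3 CPM (17.3 to 19.2). Mesp1, the factor of the first mesoderm to leave the streak, was at 221 CPM (218.2 to 223.9) and 74.6 CPM (72.7 to 76.6). Eomes was at 79 and 36.6 CPM, Evx1 at 31.6 and 13.4 CPM and Gsc at 19.7 and 5.95 CPM. The pan-mesodermal factor T was at 145.9 and 90.4 CPM, below 2-fold. Tbx6, of paraxial mesoderm, stood at 4.73 and 11.3 CPM, too low for the count.

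The haematoendothelial genes went in both directions in the sum over all cells. WT host also held more haematoendothelial-positive and erythroid-positive cells (230 and 65) than Tet-TKO (112 and 1). The early factors Etv2 and Kdr were higher in Tet-TKO by less than 2-fold, at 46.9 and 32.2 CPM for Etv2 and at 29.8 and 19.9 CPM for Kdr. The factors that follow were lower: Tal1 was at 6.18 and 22 CPM, Lmo2 at 25.5 and 73.5 CPM, Gata2 at 6.62 and 17.8 CPM, Runx1 at 13.6 and 38.6 CPM and Gata1, the master factor of erythroid cells, at 1.3 and 20.5 CPM. These 5 were the genes past 2-fold among the 7 tested, and the median was -1.51. Within the sets described below, none of 3 was lower in the streak set and none of 4 in extraembryonic mesoderm. In the haematoendothelial set 7 of 10 were lower, against 2.05% of all genes. The erythroid factor Klf1 was at 0.457 CPM (0.337 to 0.606) and 8.57 CPM (7.93 to 9.25). The embryonic globins were lower in Tet-TKO as well. Hbb-bh1 had 146 UMIs in Tet-TKO and 12870 in WT host (1.39 and 166.1 CPM), and Hba-x had 4 and 1311. Hemgn, another erythroid gene, had no UMI in Tet-TKO and 23 in WT host, at least 10.4-fold lower when 3 UMIs are taken as the limit of the Tet-TKO library.

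Few ectoderm and Hox genes passed 2-fold in the sum over all cells. Of 9 ectoderm genes tested 7 had a ratio below 0, against 4603 of all 7277 genes, with a median of -0.39. The 1 past 2-fold was Cdx1, a caudal homeobox gene, at 14.5 CPM in Tet-TKO and 2.68-fold above that in WT host. Cdx2 was at 115.9 and 89.4 CPM. Of 5 Hox genes tested Hoxd1 was higher (22.1 and 9.35 CPM), and Hoxb1 was at 34.4 and 40 CPM. Within the epiblast and the streak set, defined below, 2 of 3 Hox genes tested were lower, as were 2 of 9 and 3 of 7 ectoderm genes. Of all genes tested in these sets, 1.37% and 2.06% were lower. None of 10 Hox genes was at least 2-fold lower in the extraembryonic mesoderm set, and none of 3 in the haematoendothelial set. The median log2 ratios of these Hox genes were -0.69 and -0.44, against -0.06 and -0.04 over all genes tested in these sets. In the list of adhesion and EMT genes, Cdh11 was higher (42.4 and 18.9 CPM) and Cdh1, the epithelial cadherin, was at 33.2 and 50.2 CPM. Of the 18 glycolysis and hypoxia genes tested, the glucose transporter Slc2a3 alone was lower (132.3 and 355.7 CPM), though not past 2-fold without extraembryonic endoderm cells (log2 ratio -1.43 and then -0.89), and Ldha was at 3938 and 3368.8 CPM. None of the 15 S phase and 15 G2 and M phase genes passed 2-fold, and their medians were -0.14 and -0.09. Among 9 tested immediate early and stress genes only Junb did, at 11.6 and 23.5 CPM, a log2 ratio of -1.02 that was -0.87 without extraembryonic endoderm cells and -0.90 with TMM scaling.

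Genes of methylation itself and imprinted genes also differed. Over all genes tested, 0.907% were higher and 2.93% lower. Of 7 tested TET and DNMT genes none was higher and 2 were lower: Tet1, as above, and Tdg, the glycosylase that acts after the TET enzymes, at 40.4 CPM (39.2 to 41.7) and 86.2 CPM (84.2 to 88.3). The log2 ratio of Tdg was -1.09, and -0.97 with TMM and -0.95 with median-of-ratios scaling, so that its 2-fold call depends on the scaling. Dnmt1 (87 and 95.4 CPM), Dnmt3a (35 and 37.9 CPM) and Dnmt3b (387.4 and 452.9 CPM) were close. Dnmt3l, a cofactor abundant in trophoblast, was at 1.42 and 10.4 CPM. Imprinted genes differed in both directions, with 4 of the 24 tested higher, 5 lower and a median of -0.12. The 4 higher were Zdbf2, Snrpn (307.1 and 121.2 CPM), Slc38a4 (115.3 and 51.3 CPM) and Ndn (66.6 and 32.8 CPM). The log2 ratio of Ndn, 1.02, was 0.90 without extraembryonic endoderm cells. The lower were H19 (87 and 293.2 CPM), Cdkn1c (58.1 and 155.3 CPM), H13 (17.4 and 54.9 CPM), Grb10 (58.8 and 124.5 CPM) and Sfmbt2 (3.62 and 20.3 CPM). The log2 ratio of Grb10, -1.08, was -0.96 with TMM and -0.94 with median-of-ratios scaling. That of Sfmbt2 went from -2.49 to -1.51 with cells of at least 2 ExE ectoderm markers left out. H13 (chromosome 2, 152669461 to 152708670 on GRCm38) holds in an intron the retrogene Mcts2 (152687035 to 152687946, same strand), which was at 110.9 and 56.4 CPM. Counts of the pair are uncertain where reads overlap. Peg3 (579.7 and 411.3 CPM), Meg3 (340.7 and 370.2 CPM) and Phlda2 (1568.9 and 950.1 CPM) did not reach 2-fold. Of 18 germline genes 1 was tested, Tex19.1, which was lower (4.89 and 24.8 CPM). Its log2 ratio was -2.34, and -0.87 with cells of at least 2 ExE ectoderm markers left out. Dppa3, a germline gene below the level required, was at 5.1 and 0.865 CPM. None of the 10 genes of the 2-cell stage reached the level required for a comparison. In the list of trophoblast and extraembryonic genes, 9 were tested, Eomes was higher and 4 were lower. Elf5 is 1 of these 4, but it was used to leave cells out and says nothing further. The others were Rhox5, Trap1a (6.3 and 102.6 CPM) and Tfap2c (8.21 and 17.2 CPM). The Tfap2c difference was not seen with cells of at least 2 ExE ectoderm markers left out, where its log2 ratio of -1.06 became 0.02.

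Since the libraries differed in their classes of cells, expression was compared again within positive cells, leaving out the genes that chose them. The epiblast set, positive for epiblast and for no mesoderm or extraembryonic endoderm class, had 1373 Tet-TKO and 1197 WT host cells. Of 7011 genes 61 were at least 2-fold higher (0.87%) and 96 lower (1.37%). The streak set, positive for primitive streak or nascent mesoderm, had 1084 and 468 cells, with 56 of 7098 genes higher (0.789%) and 146 lower (2.06%). An extraembryonic mesoderm set of 971 and 571 cells and a haematoendothelial set of 112 and 230 cells were added after the values had been seen. The first had 45 of 7177 genes higher (0.627%) and 89 lower (1.24%), and the second 113 of 6992 higher (1.62%) and 143 lower (2.05%). The epiblast set is part of the cells whose sum chose the genes, so nothing is read from a shared sign. Of the genes higher in the second pass, 46 were tested in the epiblast set, 34 were 2-fold higher there too and all 46 had a ratio above 0. Of 130 lower genes, 62 were 2-fold lower in that set and 121 had a ratio below 0. Ttr was found in WT host at 21.2 CPM in the epiblast set, 62 CPM in the streak set, 60.5 CPM in extraembryonic mesoderm and 12 CPM in the haematoendothelial set, against 1.77, 0.897, 1.56 and 1.42 CPM in Tet-TKO. Of the endoderm list, 8 of 11 tested genes were lower and 1 higher in the streak set, 3 of 6 lower in the epiblast set, 5 of 6 in extraembryonic mesoderm and 1 of 5 in the haematoendothelial set. Mixed droplets and free RNA were not tested as a source.

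Within the epiblast set, Tdgf1 was at 157.1 CPM in Tet-TKO and 33.7 CPM in WT host, a log2 ratio of 2.22 (2.09 to 2.35). Nodal was at 24 and 7.95 CPM, Spry2 at 74.7 and 22.3 CPM and Dppa4 at 42.6 and 3.68 CPM, the last a log2 ratio of 3.53 (3.17 to 3.92). The posterior genes Cdx1 (6.34 and 34.9 CPM) and Nkx1-2 (11.2 and 40 CPM) were lower. Sox2 was at 79.5 and 141.1 CPM. Nanog, in contrast to the sum over all cells, was level at 26.3 and 25 CPM. Tet1 stood at 20.3 and 44.4 CPM and Tdg at 39.3 and 96.4 CPM.

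In the streak set the Lefty2 difference widened. It was at 28.1 CPM in Tet-TKO (657 UMIs) and 181.3 CPM in WT host (1222 UMIs), a log2 ratio of -2.69 (-2.83 to -2.55), while Nodal was at 15.6 and 11.3 CPM and Tdgf1 at 475.5 and 227.8 CPM. Cdx1 was again lower, at 22.6 and 124.6 CPM, and so were Hoxb1 (61.8 and 141.4 CPM) and Nkx1-2 (12.4 and 44.2 CPM), both markers of the caudal class. The sets differed in caudal cells: 4.61% of streak-positive Tet-TKO cells and 23.3% of those of WT host were caudal epiblast-positive, and 1.01% and 4.73% of epiblast-positive cells. With caudal epiblast-positive cells left out, also added after the values had been seen, the log2 ratio of Cdx1 was -2.08 (-2.28 to -1.87) in the streak set and -1.70 (-1.97 to -1.43) in the epiblast set, and that of Lefty2 in the streak set was -2.89 (-3.03 to -2.75). Fgf8 was at 229.8 and 136.5 CPM, a log2 ratio of 0.75 (0.65 to 0.85), so that its difference was narrower among streak cells than over all cells, where it was 1.62. Pou5f1 was level at 453.3 and 425.8 CPM. The streak set also differed in its mix of classes, some cells being positive for both. Of its 1084 Tet-TKO cells 867 were streak-positive and 416 nascent mesoderm-positive, against 283 and 247 of 468 WT host cells. The part of this mix in the ratios of the set, that of Lefty2 among them, was not tested.

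In the later classes some epiblast and streak genes were higher in Tet-TKO. In the extraembryonic mesoderm set 2 of 7 pluripotency genes, 2 of 10 FGF genes and 2 of 13 mesoderm factors were at least 2-fold higher. None was lower, and the medians were 0.61, 0.01 and 0.18. Of all genes tested in that set 0.627% were higher. In the haematoendothelial set 4 of 7, 1 of 8 and 7 of 14 were higher, against 1.62% of all genes, with medians of 1.03, 0.49 and 0.93. Those cells also differed in other classes: 12.5% of the Tet-TKO and 2.17% of the WT host cells were streak-positive, 8.93% and 1.3% extraembryonic mesoderm-positive and 7.14% and 1.74% epiblast-positive. In extraembryonic mesoderm, Fgf8 was at 103 CPM in Tet-TKO and 22.1 CPM in WT host, a log2 ratio of 2.22 (2.01 to 2.45). T was at 78.8 and 32.4 CPM, Mixl1 at 44.2 and 15.5 CPM, Tdgf1 at 48 and 17.2 CPM and Pou5f1 at 121.8 and 71.6 CPM. Pou5f1 thus stayed under 2-fold, and Mesp1 was at 156.2 and 132.9 CPM, a log2 ratio of 0.23. Co-positive cells were kept in this set, where 10.5% of cells in Tet-TKO and 1.58% in WT host were also streak-positive. Leaving out its epiblast-positive, streak-positive and nascent mesoderm-positive cells, an alternative added after the values had been seen, left 776 and 536 cells. Fgf8 was then at 85.2 and 19.7 CPM, a log2 ratio of 2.11 (1.87 to 2.36), while that of Tdgf1 was 0.94 (0.60 to 1.28), under 2-fold. Lmo2 (12.2 and 12.1 CPM) and Runx1 (15.3 and 14.7 CPM) did not differ in this set beyond counting error. In the haematoendothelial set, whose Tet-TKO cells number only 112, Gata1 was at 12.5 and 66.9 CPM, a log2 ratio of -2.42 (-2.98 to -1.91). Klf1 was at 1.07 and 20.1 CPM, Epor, the erythropoietin receptor, at 5.34 and 28.8 CPM, Runx1 at 78 and 152.2 CPM and Gata2 at 47 and 103 CPM. Hbb-bh1 was at 22.8 and 199.8 CPM. Of these cells 11 of 230 in WT host (4.78%) and none of 112 in Tet-TKO (exact upper limit 3.24%) were also positive for the erythroid class, of which Gata1, Klf1 and Epor are markers. Cdkn1a, the p21 inhibitor of the cell cycle, was at 19.2 and 1.68 CPM in these cells, at 29.7 and 7.6 CPM in extraembryonic mesoderm and level in the epiblast set, at 26.7 and 26.5 CPM. The haematoendothelial set held 2808626 UMIs in Tet-TKO and 3573898 in WT host. Its lowest values (Klf1 and Epor in Tet-TKO, Cdkn1a in WT host) thus rest on few UMIs.

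**Figure D4:**
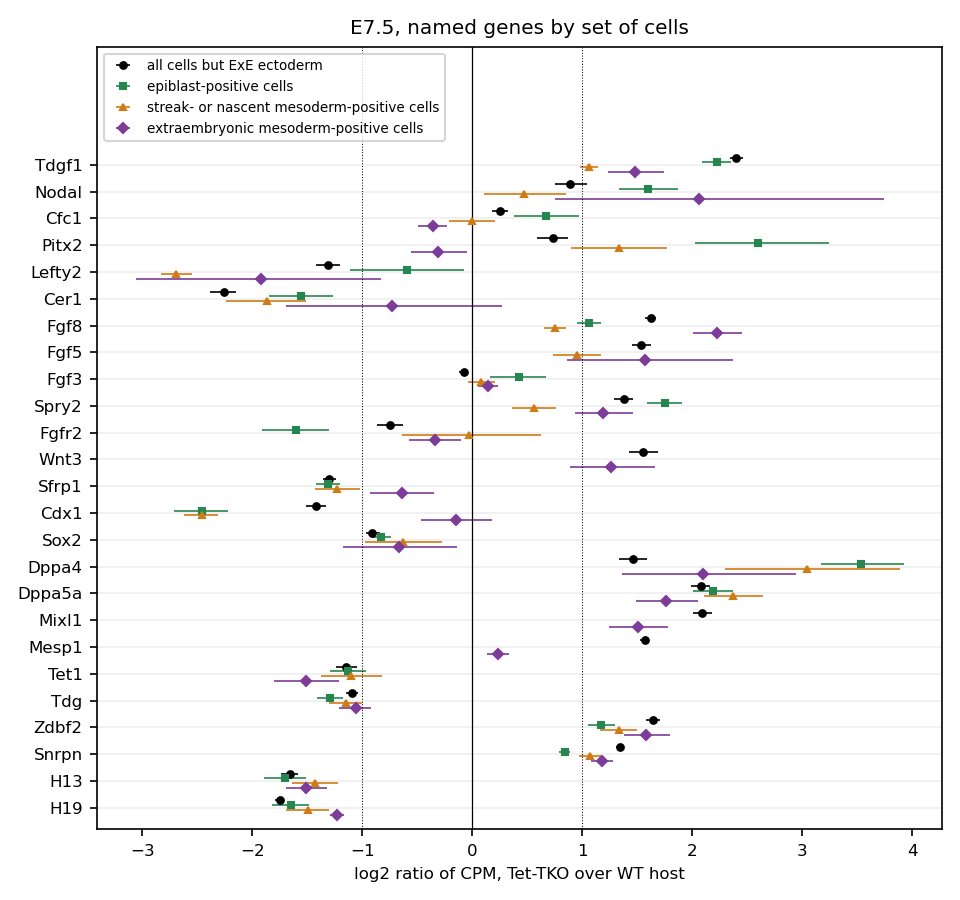
Log2 ratio of CPM, Tet-TKO over WT host, for 25 named genes (rows) in all cells without ExE ectoderm (black), the epiblast set (green), the streak set (orange) and the extraembryonic mesoderm set (purple), with 95% exact intervals for counting error; a set's own markers are not drawn, and dotted lines mark 2-fold. Lefty2 is lowest in the streak set (-2.69), Fgf8 is highest in extraembryonic mesoderm (2.22), and Tet1, Tdg, H13 and H19 are below -1 in all 4.

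Some of the higher genes have a near-identical copy elsewhere in the genome that was lower or level. These genes were named after their values had been seen. Of the 66 higher genes, 12 (18.2%) had names with Rps, Rpl, Gm or Rik, against 315 of the 7277 tested (4.33%), a class that also takes in ordinary ribosomal protein genes. Rps3a3 on chromosome 13 was at 4872 CPM in Tet-TKO and 151.4 CPM in WT host, and Rps3a1 on chromosome 3, which encodes the same ribosomal protein, was at 325.2 and 4483.6 CPM. Their sum was 5197.2 and 4635 CPM, a log2 ratio of 0.17. Eif3j2 was at 39 and 4.31 CPM while Eif3j1 was at 122.9 and 257.7 CPM, and here the sum, at 161.9 and 262 CPM, did not balance (log2 ratio -0.69). Hmga1b and Hmga1 together had a log2 ratio of -0.36. Rps13-ps1 was at 124.8 and 3.56 CPM while Rps13 was level at 2480.7 and 2325.5 CPM. Reads of such copies may be assigned to either, so that these single-gene values are uncertain. At E8.5 Rps3a3 lay between 3912.6 and 4636.2 CPM in the 4 Tet-TKO libraries and at 296.3 and 102.6 CPM in the 2 WT host libraries. Strain and genotype cannot be told apart at either stage.

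The 4 Tet-TKO and 2 WT host libraries of E8.5 were set beside E7.5 as a description, with the same cell limits and the same ExE ectoderm rule. They share the ES cells, the strain difference and the sort, so they do not separate these from the genotype. Of the 66 genes higher at E7.5, 47 (71.2%) were above both WT host libraries in all 4 Tet-TKO libraries, whereas 28.2% of all genes tested were, and none was below. Of the 213 lower genes, 144 (67.6%) were below both WT host libraries in all 4, against 17.3% of all genes, and 4 were above. Spata7 remained between 80.9 and 97 CPM in Tet-TKO against 18.2 and 18.8 CPM, and Zdbf2 between 81.6 and 139 CPM against 26.2 and 29.6 CPM. Gata1 and Hbb-bh1 were below both host libraries in all 4. Gata1 was between 3.74 and 6.04 CPM against 33.4 and 41.2 CPM, and Hbb-bh1 between 312.9 and 693.7 CPM against 6475 and 12720.1 CPM. The Hbb-bh1 level in Tet-TKO was thus above the 1.39 CPM of E7.5 in every library.

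Tdgf1, Lefty2, Mesp1, Fgf5 and Dppa5a did not keep their order at E8.5. Tdgf1 was between 1.1 and 4.19 CPM in Tet-TKO at E8.5 and at 2.91 and 0.905 CPM in WT host, and the groups overlapped. Lefty2 lay between 1.6 and 4.29 CPM in Tet-TKO and at 1.82 and 2.99 CPM in WT host, again overlapping. Mesp1, Fgf5 and Dppa5a overlapped too. Fgf8 was above both host libraries in every Tet-TKO library, at 55.9 to 75.1 CPM against 44.1 and 43 CPM. So was Fgf3, which had been level at E7.5, at 20.4 to 43.4 CPM against 20 and 12.7 CPM. Tet1 overlapped, at 9.93 to 20.9 CPM in Tet-TKO and at 22.4 and 20.4 CPM in WT host, while Tdg was below the host in all 4, at 34.8 to 66.1 CPM against 71.5 and 75.3 CPM.

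**Figure D5:**
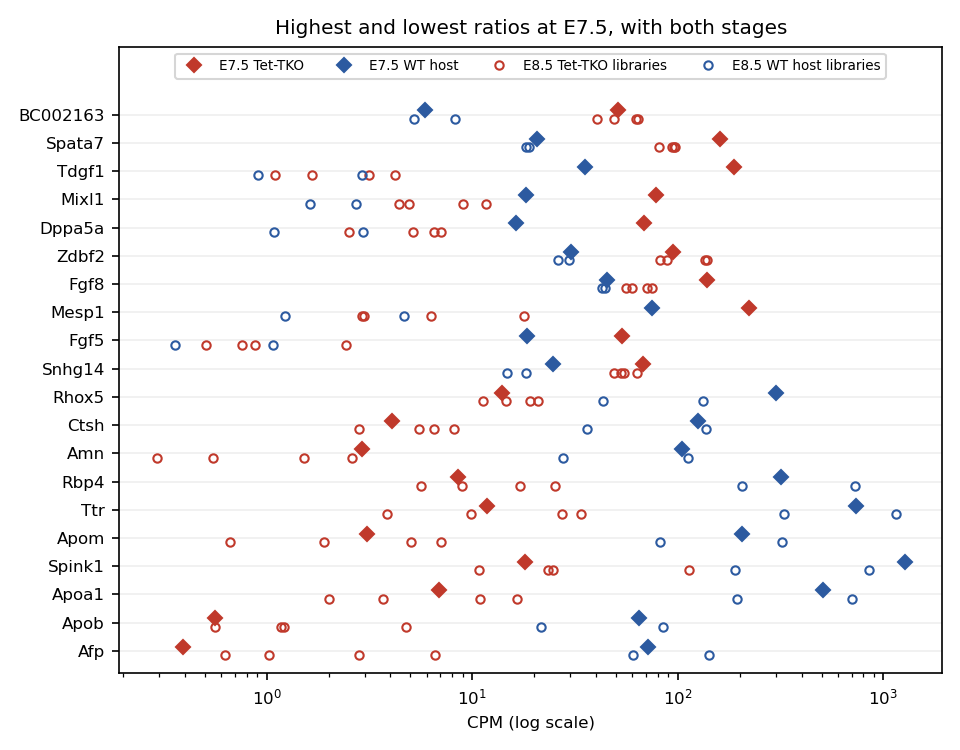
CPM (x axis, log scale) of the 10 highest and 10 lowest ratios of the E7.5 ranking (rows), without ExE ectoderm cells. Filled diamonds are the single E7.5 libraries and open circles each E8.5 library, Tet-TKO in red and WT host in blue. The 10 lower genes are below the host in all 4 Tet-TKO libraries at E8.5, Spata7 and Zdbf2 stay above it, and Tdgf1, Dppa5a, Mesp1 and Fgf5 overlap.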

How the data were processed

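Droplet 3′ RNA libraries of pooled, sorted chimaeric embryos were analysed, 1 for each genotype at E7.5, with 6 libraries of E8.5 used beside them. The authors processed the reads with Cell Ranger against mm10 with the tdTomato sequence added, and deposited whole-number UMI counts per gene and barcode, not normalised. Per the file headers the matrices were written by version 3.1.0, an earlier one than the methods name. Groups came from the sample labels.

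From the deposited counts, cells were kept by the 3 limits given above, and a second pass left out cells with at least 3 of 5 ExE ectoderm markers. Doublets were kept. As an alternative, the cells with the highest Scrublet scores (scanpy 1.11.5, Python 3.11.15) were removed, 0.8% for every 1000 cells of the library. Their number was thus fixed by library size and not by a doublet call, and 5270 Tet-TKO and 6734 WT host cells were left. Class calls and genes per cell used cells thinned without replacement to 5000 UMIs with a fixed seed. Extraembryonic endoderm cells left out as an alternative were called on all UMIs. Sums over cells were scaled to CPM by the total of the library. A gene was compared at a mean of at least 10 CPM and counted past a log2 ratio of 1. No test was run, as each genotype had 1 library. Intervals were exact (Poisson, binomial, conditional for ratios, order statistics for medians) at 95%. Scaling by TMM used edgeR 4.0.16. The functions were tested on simulated counts.

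The text names list members past 2-fold with up to 5 more of each list. It also names the 10 highest and 10 lowest ratios among genes of at least 50 CPM in the higher library. That ranking left out mitochondrial, ribosomal, haemoglobin, Gm and Rik genes, Xist and the Y-linked genes. Tet1, Tet2, Tet3, tdTomato, Lefty2, Fgf8, Fgf3, Xist and the Y-linked genes are named at any level. The members, lists and marker classes were chosen with earlier results of these data known. Positions are from GENCODE M21 (GRCm38), which matches mm10.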

Additional observations from a re-analysis of the deposited data

Results flagged for a closer look

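In 3 of the 30 genes whose 4 Tet-TKO libraries of E8.5 were screened, 1 library stood apart by Dixon's criterion, and chance flags about 1 in 20 such groups. Spink1, a visceral endoderm product, was at 112.9 CPM in E8.5 Tet-TKO replicate 1, against 10.8 to 24.7 CPM in the other 3. Ddx3y, on the Y chromosome, was at 4.7 CPM in the same library, against 1.02 to 1.42 CPM. Apob, a lipoprotein component, was at 4.78 CPM in E8.5 Tet-TKO replicate 3, against 0.561 to 1.22 CPM. In all 3 genes every Tet-TKO library remained below both WT host libraries.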

How the results depend on the processing

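No paired analysis was possible because the results come from no test. With the level required raised from 10 to 50 CPM, 26 genes were at least 2-fold higher and 60 lower in all kept cells, and 21 and 51 without ExE ectoderm. With no requirement beyond 1 UMI in each library these became 1784 and 3869, and 1547 and 3734. Leaving out extraembryonic endoderm cells too left 125 lower genes. TMM scaling shifted the median log2 ratio by 0.12 and gave 85 higher and 172 lower genes (33.1% of calls higher, against 23.7%), and median-of-ratios scaling shifted it by 0.14 and gave 91 and 169 (35%). The difference in median genes per cell was +741 without thinning, -40 at 3000 UMIs, -69 at 10000 UMIs, -47 in cells of at least 10000 UMIs (a limit chosen after seeing the data) and -50 without extraembryonic endoderm cells. The log2 ratio of the epiblast share was 0.34 at 10000 UMIs, 0.42 in cells of at least 10000 UMIs, 0.45 without extraembryonic endoderm cells, 0.29 with 2 markers and 0.85 with 4. That of the streak share was 1.53 at 10000 UMIs, 1.33 with 2 markers and 2.14 with 4, and that of the haematoendothelial share -0.47 with 2 markers. That of the extraembryonic endoderm share was -3.52 without thinning, -3.59 at 3000 UMIs, -6.09 at 10000 UMIs, -6.29 in cells of at least 10000 UMIs and -5.97 in cells whose tdTomato UMIs matched the fraction. Over the E8.5 libraries left out in turn, 47 to 62 of the higher and 145 to 171 of the lower genes lay outside the host range. The 62 was without WT host replicate 1 and the 171 without WT host replicate 2. Leaving a library out can only keep or raise these counts, so they do not check the result against single libraries. The log2 ratio of Tfap2c was 0.02 with cells of 2 ExE ectoderm markers left out. Of 66 named genes past 2-fold, 59 stayed so without extraembryonic endoderm cells (Rbp4 at -0.79, Apoe, Sox17, Cldn6, Slc2a3, Ndn and Junb did not), 62 without cells of 2 ExE ectoderm markers (Tfap2c, Tex19.1, Ndn and Junb), 62 under each other scaling (Tdg, Tfap2c, Grb10 and Junb), 64 as a mean over cells (Eomes and Ndn) and 65 in cells of at least 10000 UMIs (Junb). The ratio moved by over 1.5-fold for 13 genes without extraembryonic endoderm cells, 7 without cells of 2 ExE ectoderm markers, 11 as a mean over cells, 9 in cells matching by tdTomato and 4 in cells of at least 10000 UMIs. Those 13 take in Afp, Amn, Apoa4, Apom and Cubn, which called the extraembryonic endoderm cells left out. The causes were not tested.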
